A study of Homo sapiens with 6 samples.

Results

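The genes described here are 35 members of the antioxidant programme of the transcription factor NRF2, out of 61860 genes in the deposited count table. They were chosen by gene symbol: NRF2 itself, its inhibitor KEAP1, 2 small MAF partners, and enzymes of thioredoxin, glutathione, NADPH, heme, iron, carbonyl and quinone metabolism. All 35 matched 1 row of the table each. The cells are A498, a human line from a kidney carcinoma, grown in culture. The PTPRZ_Si group is labelled as a knockdown of the receptor tyrosine phosphatase PTPRZ1 by siRNA, and its control, PTPRZ_nc, is labelled as the control of a knockdown by plasmid. Each group has 3 libraries, and the treatment of both is given as transfection and infection. Nothing in the labels ties the 3 to separate cultures, so the spread that the p-values rest on may be technical. Any difference between the groups cannot be told apart from one between the siRNA and the plasmid that the labels name.

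NRF2, encoded by NFE2L2, is bound in the cytoplasm by KEAP1, which hands it to a CUL3 ubiquitin ligase for degradation. Oxidants and electrophiles modify cysteines of KEAP1, NRF2 then accumulates, pairs with a small MAF protein in the nucleus and binds antioxidant response elements near its target genes. The targets make glutathione and reduced thioredoxin, supply NADPH to both, break down heme, store iron, and reduce or conjugate reactive carbonyls and quinones. In kidney cancer the pathway is known from tumours that carry changes in its regulators.

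Total counts in genes were 14407846, 21003207 and 21469746 in PTPRZ_Si replicates 1, 2 and 3, and 17083498, 13726908 and 18609477 in PTPRZ_nc replicates 1, 2 and 3. PTPRZ1 had 0 counts in all 6 libraries, which allows up to 0.14 to 0.208 CPM in the PTPRZ_Si libraries and 0.161 to 0.219 CPM in the PTPRZ_nc libraries (CPM are counts scaled to library size, the limit is 3 counts a library, and it covers counting error only). The knockdown could not be checked by its target. The epithelial markers KRT8 (1315 ± 7.5 CPM in PTPRZ_Si and 1198 ± 40.6 CPM in PTPRZ_nc) and the kidney factor PAX8 (556 ± 22.4 CPM in PTPRZ_Si and 313 ± 21.3 CPM in PTPRZ_nc) were present, and CA9, a marker of clear cell carcinoma, was low at 2.54 ± 0.22 CPM in PTPRZ_Si and 3.0 ± 0.507 CPM in PTPRZ_nc (SD, n = 3 each). The 9 kidney and carcinoma markers summed to 3274 to 3393 CPM in PTPRZ_Si and 3213 to 3251 CPM in PTPRZ_nc, with 5 of 8 tested higher and VIM lower. KRT8, VIM and KRT18 made up most of this sum, so it says little of the other markers. The log2 fold change was 1.06 for CDH6, among those higher, and -0.58 for VIM. NDUFA4L2, another of the 9, was near 0, at 0.157 CPM in PTPRZ_Si and 0.304 CPM in PTPRZ_nc, and was not tested. Leukocyte markers summed to 0.912 to 1.32 CPM in PTPRZ_Si and 0.533 to 0.877 CPM in PTPRZ_nc, with PTPRC and CD3E at 0 among the 4, and endothelial markers to 1.36 to 1.6 CPM in PTPRZ_Si and 0.935 to 1.01 CPM in PTPRZ_nc, with CDH5 at 0 among the 3. HBB and HBA1 were at 0. Fibroblast markers, 4 genes that are almost all COL1A1 here, summed to 21.6 to 23.8 CPM in PTPRZ_Si and 31.4 to 41.7 CPM in PTPRZ_nc, and the part of these markers in the results below was not tested. PTPRZ_nc replicate 2, the smallest library, stood apart from the other controls, with a chi-square per degree of freedom of 5.25 and 6.26 against them and 2.66 between those 2. In bulk RNA, fewer cells of a kind and less RNA per cell cannot be told apart.

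The sequence that NRF2 and its MAF partner are known to bind has the core TGACNNNGC. The stretches below show where that core lies just upstream of a RefSeq start of members whose values follow. Promoters of 300 bases, 250 before and 50 after a RefSeq start site (GRCh38.p14), were searched on both strands. They matched 27 of the 35 members by symbol, at 37 start sites. PRDX1, PRDX6, GSR, SLC7A11, HMOX1, FTH1, AKR1B10 and CBR3 had no match and were not searched. The core was present at 1 or more start sites of 9 of these 27 genes (33.3%), against 4384 of 27305 genes of the whole table (16.1%), or 27% against 13.3% of start sites. A match describes letters in the window and not a bound site. Capitals mark the core, on the strand of the gene, and a core that reads GCNNNGTCA lies on the other strand. TXNRD1 has a match at each of the starts named below, at chr12:104215672-104215696 and chr12:104286922-104286946 on the plus strand. TXNRD1, at its first start, and ME1 each have a further core. The stretch around it does not lie wholly upstream of the start and is not shown. GCLM has one at chr1:93909448-93909472 (minus strand), PGD at chr1:10398855-10398879 (plus), EPHX1 at chr1:225825268-225825292 (plus) and CBR1 at chr21:36069857-36069881 (plus). KEAP1 has a pair, at chr19:10502809-10502833 and chr19:10502786-10502810 (minus), ME1 has the one shown at chr6:83431172-83431196 (minus), and MAFF has one at chr22:38201864-38201888 (plus).
TXNRD1, first start: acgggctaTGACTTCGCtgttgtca
TXNRD1, other start: ggatttctGCTTTGTCAttctgact
GCLM: cgatttctGCTTAGTCAttgtcttc
PGD: tcgccgggGCAATGTCAtctaggtg
EPHX1: agattggcTGACTTGGCaggactgt
CBR1: cgggttctGCAAAGTCAggctagct
KEAP1, first core: ttttattgTGACACGGCgggcgccc
KEAP1, other core: ccggctctGCTTAGTCAtggtgacc
ME1: tcctgccaTGACTCAGCgcttctcg
MAFF: tccaggggGCGGGGTCAtacggggg

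Most of the programme was higher in the PTPRZ_Si libraries. Of 34 members with enough counts to be tested, 23 rose, 1 fell and 10 did not pass an adjusted p of 0.05 in edgeR's quasi-likelihood test, fitted over all 15476 tested genes. In that fit 14.0% of all tested genes were called higher and 13.4% lower, against 67.6% of the tested members called higher and 1 of 34 called lower. The median log2 fold change (PTPRZ_Si over PTPRZ_nc) was 0.24 over the tested members and 0.0010 over all tested genes. The groups did not overlap for 24 members that were higher and 2 that were lower, where 20.8% and 20.0% of all tested genes had such a gap in those directions. The changes were modest: the largest was 1.75-fold, and 20 of the 23 that rose changed by less than 1.5-fold. Of the 9 members with the core near a start, 6 rose (TXNRD1, GCLM, PGD, EPHX1, CBR1 and KEAP1), MAFF fell, ME1 did not pass and GPX2 was not tested. Searched members without the core in their promoter window also rose, such as NQO1 and AKR1B1, or did not pass, such as TXN and GCLC. Sequence outside that window was not searched, so a core farther from a start would have been missed. Whether the core goes with a rise was not tested.

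Summed over the tested members, the level was 28362, 28874 and 28397 CPM in PTPRZ_Si replicates 1, 2 and 3, and 22912, 22587 and 22806 CPM in PTPRZ_nc replicates 1, 2 and 3. The 3 libraries of each group lay close together and the groups were far apart. In the PTPRZ_Si libraries 30, 30 and 29 of the 34 members exceeded the mean of the controls, and in the PTPRZ_nc libraries 16, 21 and 12 did. Triples of values below are in the order of replicates 1, 2 and 3, and CPM are scaled by TMM, a factor per library that ran from 0.9936 to 1.009.

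**Figure D1:**
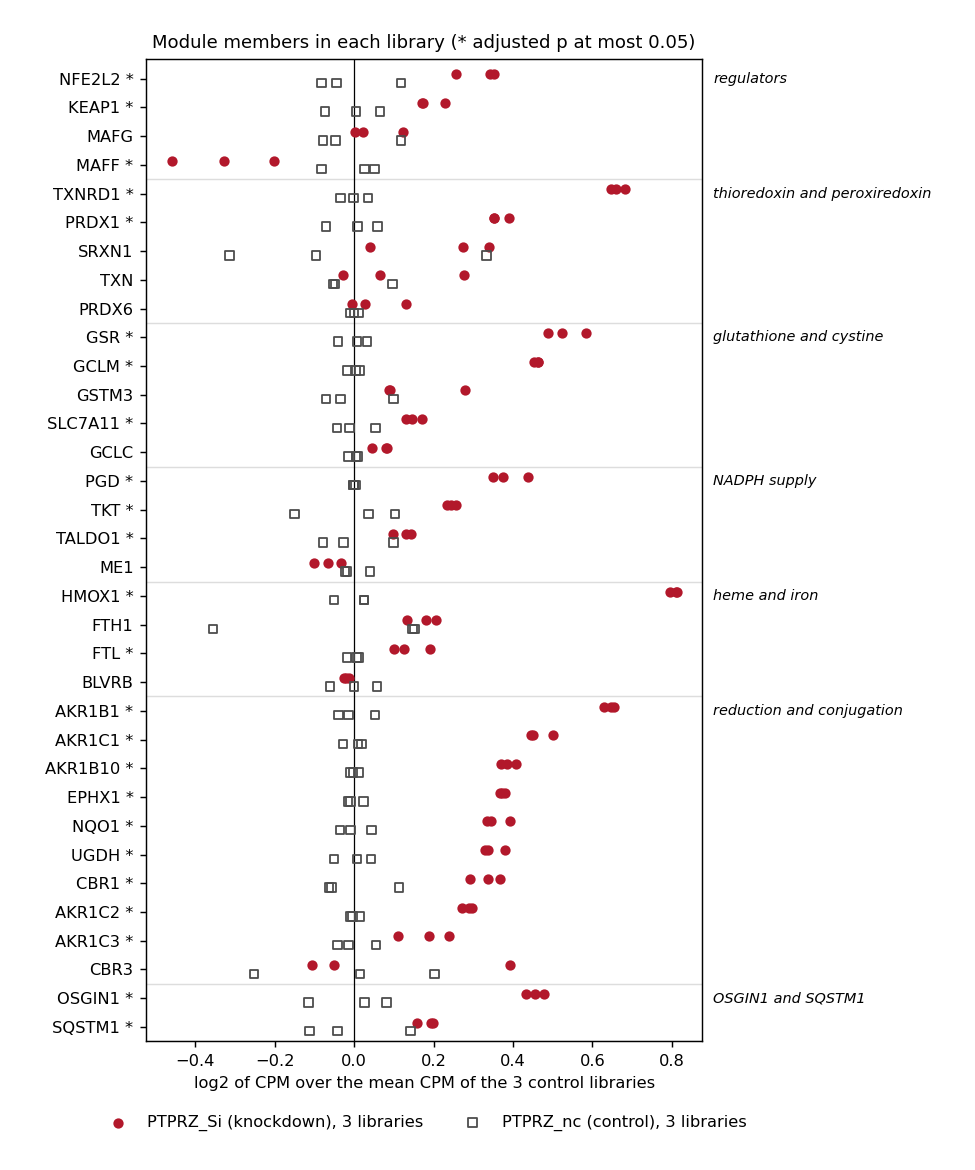
Each row is 1 of the 34 tested members, grouped by role, and each point 1 library: filled circles PTPRZ_Si, open squares PTPRZ_nc, on a log2 scale of CPM over the mean of the 3 controls. For HMOX1, TXNRD1 and AKR1B1 the PTPRZ_Si points lie farthest to the right, MAFF is the called member on the left, and 1 control of FTH1 and 1 of SRXN1 stand away from the other 2.

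Among the regulators, both NFE2L2 and its inhibitor KEAP1 rose, MAFF fell and MAFG did not pass. NFE2L2 (ENSG00000116044, GRCh38 chromosome 2 from 177227595 to 177392697, minus strand) had 244, 261 and 259 CPM in the PTPRZ_Si libraries, against 198, 193 and 222 CPM in the PTPRZ_nc libraries, with no overlap (log2 fold change 0.32, SE 0.0517, edgeR adjusted p = 1.93e-04). KEAP1 (chromosome 19 from 10486120 to 10503741, minus strand), the adaptor that holds NRF2 for degradation, had 144, 149.8 and 144 CPM in the PTPRZ_Si libraries, against 128, 134 and 122 CPM in the PTPRZ_nc libraries (log2 fold change 0.19, SE 0.0481, edgeR adjusted p = 0.0062). These are levels of RNA, and NRF2 is known to be controlled largely through the stability of its protein, which was not measured. MAFF, a small MAF protein that pairs with NRF2, had 21.3, 19.5 and 17.8 CPM in the PTPRZ_Si libraries, against 25.4, 23.2 and 25 CPM in the PTPRZ_nc libraries, every PTPRZ_Si value below every control (log2 fold change -0.33, SE 0.087, edgeR adjusted p = 0.0082). It did not pass without PTPRZ_Si replicate 3 (edgeR adjusted p = 0.0595), where its log2 fold change was -0.27. MAFG, the other small MAF protein of the module, had 286, 282 and 307 CPM in the PTPRZ_Si libraries, against 273, 306 and 267 CPM in the PTPRZ_nc libraries, and the groups overlapped (log2 fold change 0.05, SE 0.0516, edgeR adjusted p = 0.502, 95% interval -0.06 to 0.16). Without PTPRZ_nc replicate 2, its highest control, MAFG had a log2 fold change of 0.11 and passed (edgeR adjusted p = 0.0376). It was 0.01 without PTPRZ_Si replicate 3, 0.03 without PTPRZ_nc replicate 1 and 0.01 without PTPRZ_nc replicate 3, and did not pass (edgeR adjusted p = 0.913, 0.787 and 0.90).

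In the thioredoxin system the reductase and a peroxiredoxin rose, while thioredoxin itself and 2 further members of 5 did not pass. TXNRD1 (ENSG00000198431, chromosome 12 from 104215779 to 104350305, plus strand), the selenoenzyme that reduces thioredoxin with NADPH, had 2915, 2960.4 and 2886 CPM in the PTPRZ_Si libraries, against 1803, 1890.3 and 1843 CPM in the PTPRZ_nc libraries, and the groups were far apart (log2 fold change 0.66, SE 0.030, edgeR adjusted p = 1.13e-10). Of all tested genes, 4.14% had a larger log2 fold change. PRDX1, a peroxidase that takes its electrons from thioredoxin, had 631, 615 and 614 CPM in the PTPRZ_Si libraries, against 501, 458 and 484 CPM in the PTPRZ_nc libraries (log2 fold change 0.36, SE 0.0395, edgeR adjusted p = 2.59e-06). TXN, thioredoxin, had 511, 592 and 479.5 CPM in the PTPRZ_Si libraries, against 471, 523 and 473 CPM in the PTPRZ_nc libraries, with overlapping groups (log2 fold change 0.11, SE 0.0614, edgeR adjusted p = 0.203, 95% interval -0.02 to 0.24). PRDX6, a peroxiredoxin that relies on glutathione, had 435, 477 and 445 CPM in the PTPRZ_Si libraries, against 437, 439.6 and 433 CPM in the PTPRZ_nc libraries and did not pass (95% interval of the log2 fold change -0.03 to 0.14). SRXN1, sulfiredoxin, which repairs overoxidised peroxiredoxins, had 51.4, 43.7 and 53.8 CPM in the PTPRZ_Si libraries, against 39.8, 53.6 and 34.2 CPM in the PTPRZ_nc libraries, so its spread within the controls was wide (log2 fold change 0.23, SE 0.118, edgeR adjusted p = 0.158). PTPRZ_nc replicate 2 held the highest control value of both TXN and SRXN1. Without it both passed, TXN with a log2 fold change of 0.16 (edgeR adjusted p = 0.0244) and SRXN1 with 0.42 (edgeR adjusted p = 3.28e-04). Other libraries moved these values too: without PTPRZ_Si replicate 2 the log2 fold change of TXN was 0.02 (edgeR adjusted p = 0.868), and without PTPRZ_Si replicate 3 it was 0.17 (edgeR adjusted p = 0.062). That of SRXN1 was 0.09 without PTPRZ_nc replicate 3 (edgeR adjusted p = 0.593), and that of PRDX6 was 0.01 without PTPRZ_Si replicate 2 (edgeR adjusted p = 0.912). SRXN1 shares 85% of its exon bases with a read-through gene on the same strand in GENCODE 29, and a read pair that lies in both may not have been counted for either.

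The ratio of TXN to TXNRD1 was lower in all 3 PTPRZ_Si libraries. Counts of TXN per kb of exon over those of TXNRD1 gave ratios of 1.03, 1.17 and 0.976 in the PTPRZ_Si libraries and 1.54, 1.62 and 1.51 in the PTPRZ_nc libraries. The means were 1.06 ± 0.103 in PTPRZ_Si and 1.56 ± 0.0612 in PTPRZ_nc (SD, n = 3 each), a difference of -0.56 on the log2 scale. The groups did not overlap (exact permutation test, 2-sided, p = 0.1, the smallest that 3 against 3 allows). A ratio within a library does not depend on how libraries are scaled, and it does not say which of the pair changed.

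Of the genes of glutathione and cystine, 3 rose and 2 of 5 tested did not pass. GSR, glutathione reductase, which restores glutathione with NADPH, had 349, 364 and 341 CPM in the PTPRZ_Si libraries, against 236, 248 and 244 CPM in the PTPRZ_nc libraries (log2 fold change 0.53, SE 0.0416, edgeR adjusted p = 6.12e-08). GCLM (ENSG00000023909, chromosome 1 from 93885205 to 93909456, minus strand), the modifier subunit of glutamate-cysteine ligase, the enzyme that starts glutathione synthesis, had 519, 518 and 515 CPM in the PTPRZ_Si libraries, against 372, 377 and 380.1 CPM in the PTPRZ_nc libraries (log2 fold change 0.46, SE 0.0358, edgeR adjusted p = 6.11e-08). Both groups of GCLM were tight and well separated. GCLC, the catalytic subunit of the same enzyme, had 89.5, 87.3 and 89.6 CPM in the PTPRZ_Si libraries, against 84.9, 85.2 and 83.7 CPM in the PTPRZ_nc libraries, and although no values overlapped, the gap was small and it did not pass (log2 fold change 0.07, SE 0.0481, edgeR adjusted p = 0.313, 95% interval -0.03 to 0.17). SLC7A11, the cystine importer xCT, had 603, 609 and 619 CPM in the PTPRZ_Si libraries, against 534, 546 and 571 CPM in the PTPRZ_nc libraries, a small rise with no overlap (log2 fold change 0.15, SE 0.0373, edgeR adjusted p = 0.00623). GSTM3, a glutathione transferase, had 45.9, 40.2 and 40.2 CPM in the PTPRZ_Si libraries, against 40.5, 36.9 and 36 CPM in the PTPRZ_nc libraries, with groups that met, and did not pass (log2 fold change 0.15, SE 0.0738, edgeR adjusted p = 0.147). Without PTPRZ_Si replicate 1 its log2 fold change was 0.09 (edgeR adjusted p = 0.489). GPX2, a glutathione peroxidase, was not tested, with 7, 16 and 9 counts in the PTPRZ_Si libraries and 7, 0 and 6 in the PTPRZ_nc libraries.

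The ratio of GCLM RNA to GCLC RNA was higher in all 3 PTPRZ_Si libraries. Protein was not measured, so it is not the ratio of the subunits in the enzyme. Per kb of exon, counts of GCLM over those of GCLC were 9.25, 9.47 and 9.17 in the PTPRZ_Si libraries and 6.99, 7.06 and 7.24 in the PTPRZ_nc libraries, with no overlap. The means were 9.3 ± 0.156 in PTPRZ_Si and 7.1 ± 0.128 in PTPRZ_nc (SD, n = 3 each). The difference was 0.39 on the log2 scale (exact permutation test, 2-sided, p = 0.1, the smallest possible with these group sizes).

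**Figure D2:**
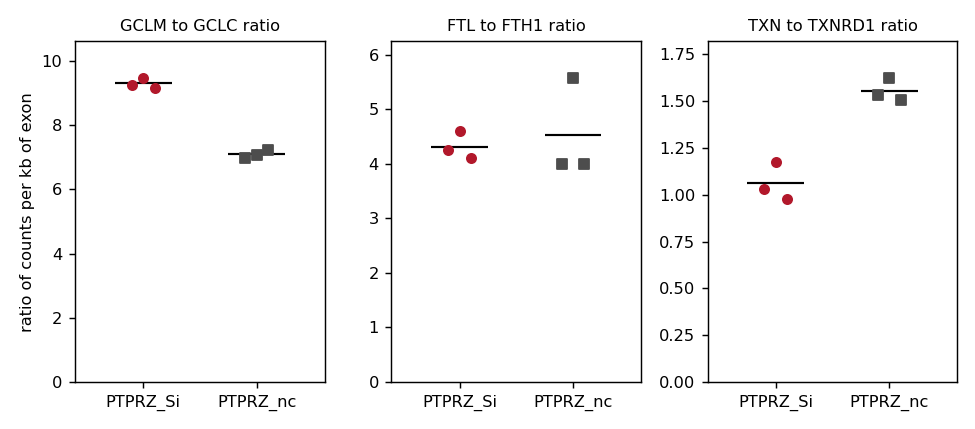
Ratios of counts per kb of exon within each library, PTPRZ_Si on the left and PTPRZ_nc on the right of each panel, with 1 point per library and a bar at the mean. The GCLM to GCLC ratio is higher and the TXN to TXNRD1 ratio lower in all 3 PTPRZ_Si libraries, and the FTL to FTH1 ratio overlaps, with 1 control far above the other 2.

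Of the 4 members grouped under supply of NADPH, the electron donor of both systems, 3 rose. Only PGD, which rose, and ME1, which did not pass, make NADPH themselves. PGD, phosphogluconate dehydrogenase, which makes NADPH in the oxidative pentose phosphate pathway, had 597, 624 and 587 CPM in the PTPRZ_Si libraries, against 460.3, 462 and 460.2 CPM in the PTPRZ_nc libraries, and the 3 controls were almost equal (log2 fold change 0.39, SE 0.037, edgeR adjusted p = 6.13e-07). TKT and TALDO1, transketolase and transaldolase, run the non-oxidative branch of that pathway, which makes no NADPH. TKT had 1229, 1238 and 1248 CPM in the PTPRZ_Si libraries, against 1123, 942 and 1071 CPM in the PTPRZ_nc libraries (log2 fold change 0.24, SE 0.0482, edgeR adjusted p = 0.00104), with PTPRZ_nc replicate 2 the lowest control. TALDO1 had 557, 574 and 569 CPM in the PTPRZ_Si libraries, against 510.5, 557 and 493 CPM in the PTPRZ_nc libraries, so that the highest control and the lowest PTPRZ_Si value almost met (log2 fold change 0.12, SE 0.0435, edgeR adjusted p = 0.0415). The call of TALDO1 was lost without any 1 library other than PTPRZ_nc replicate 2: without PTPRZ_Si replicates 1, 2 or 3 the edgeR adjusted p was 0.0971, 0.137 and 0.127, and without PTPRZ_nc replicates 1 or 3 it was 0.135 and 0.18. ME1, the cytosolic malic enzyme, did not follow the others. It had 91.6, 93.7 and 89.4 CPM in the PTPRZ_Si libraries, against 94.3, 94.7 and 98.6 CPM in the PTPRZ_nc libraries, and all 3 PTPRZ_Si values were under all 3 controls by a small margin that did not pass (log2 fold change -0.07, SE 0.0487, edgeR adjusted p = 0.344, 95% interval -0.17 to 0.04).

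Of the 4 genes of heme and iron, HMOX1 and FTL rose and 2 did not pass, and HMOX1 had the largest change of the module. HMOX1 (ENSG00000100292, chromosome 22 from 35380361 to 35394214, plus strand), heme oxygenase 1, which opens heme to biliverdin, iron and carbon monoxide, had 279, 279 and 276 CPM in the PTPRZ_Si libraries, against 162, 162 and 154 CPM in the PTPRZ_nc libraries (log2 fold change 0.81, SE 0.0418, edgeR adjusted p = 4.64e-10), and 2.49% of all tested genes had a larger log2 fold change. BLVRB, biliverdin reductase B, had 215, 216 and 214 CPM in the PTPRZ_Si libraries, against 227, 218 and 209 CPM in the PTPRZ_nc libraries, and the PTPRZ_Si values lay inside the range of the controls (log2 fold change -0.02, SE 0.043, edgeR adjusted p = 0.788, 95% interval -0.11 to 0.07). Its sign turned without PTPRZ_nc replicate 1 (log2 fold change 0.01). Ferritin, which stores the iron, is built of the chains FTL and FTH1. FTL, the light chain, had 3911, 4091 and 3844 CPM in the PTPRZ_Si libraries, against 3599, 3539 and 3613 CPM in the PTPRZ_nc libraries, a small rise with no overlap (log2 fold change 0.14, SE 0.0295, edgeR adjusted p = 0.00177). FTH1, the heavy chain, had 2126, 2058 and 2167 CPM in the PTPRZ_Si libraries, against 2078, 1467 and 2086 CPM in the PTPRZ_nc libraries. PTPRZ_nc replicate 2 was far below the other 5 libraries, and FTH1 did not pass (log2 fold change 0.17, SE 0.086, edgeR adjusted p = 0.154). Without that library its log2 fold change was 0.02 (edgeR adjusted p = 0.583). The ratio of FTL to FTH1 per kb of exon was 4.25, 4.6 and 4.1 in PTPRZ_Si and 4.0, 5.58 and 4.0 in PTPRZ_nc, with overlapping groups (difference -0.05 on the log2 scale, exact permutation test, 2-sided, p = 1). Its sign turned without PTPRZ_nc replicate 2, to 0.11 (exact permutation p = 0.20). FTH1 shares 62.4% of its exon bases with BEST1 on the opposite strand, and 19.9% of the 50-base words of its transcripts occur in those of other genes, most of them in the pseudogene FTH1P10.

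Enzymes that reduce or conjugate carbonyls, quinones and epoxides were higher in 9 of 10 cases, lower in 0, and 1 did not pass. AKR1B1 (ENSG00000085662, chromosome 7 from 134442350 to 134459284, minus strand), aldose reductase, had 2597, 2549 and 2581 CPM in the PTPRZ_Si libraries, against 1633, 1711 and 1605 CPM in the PTPRZ_nc libraries (log2 fold change 0.64, SE 0.0317, edgeR adjusted p = 2.95e-10). Its paralog AKR1B10, which lies next to it on the chromosome and reduces retinal and other aldehydes, had 2588, 2615 and 2655 CPM in the PTPRZ_Si libraries, against 1999, 2018 and 1991 CPM in the PTPRZ_nc libraries (log2 fold change 0.39, SE 0.0286, edgeR adjusted p = 3.14e-08). For both, the gap between the groups was wider than the range within either. The 3 AKR1C genes, neighbours on chromosome 10, encode reductases of steroids, prostaglandins and lipid aldehydes. AKR1C1 averaged 1341 ± 28.2 CPM in PTPRZ_Si and 971 ± 16.6 CPM in PTPRZ_nc (SD, n = 3 each; log2 fold change 0.47, SE 0.0329, edgeR adjusted p = 1.95e-08). AKR1C2 averaged 1302 ± 10.8 CPM in PTPRZ_Si and 1068 ± 9.04 CPM in PTPRZ_nc (SD, n = 3 each; log2 fold change 0.29, SE 0.0312, edgeR adjusted p = 2.80e-06). AKR1C3 averaged 504 ± 22.6 CPM in PTPRZ_Si and 445 ± 15.5 CPM in PTPRZ_nc (SD, n = 3 each; log2 fold change 0.18, SE 0.0421, edgeR adjusted p = 0.00382). Point estimates thus ran from 0.18 to 0.47 within this cluster, and whether the paralogs differ was not tested. AKR1C1 and AKR1C2 are close copies: 28.6% of the 50-base words in AKR1C1 transcripts and 38.9% of those of AKR1C2 occur in other genes, against 4.53% for AKR1C3. Read pairs that fit more than 1 copy may not have been counted, so these levels are uncertain.

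NQO1, the quinone reductase that is the classic target of NRF2, had 1183, 1230.4 and 1190.4 CPM in the PTPRZ_Si libraries, against 915, 967 and 932 CPM in the PTPRZ_nc libraries (log2 fold change 0.36, SE 0.0345, edgeR adjusted p = 6.87e-07). EPHX1, microsomal epoxide hydrolase, had 839, 842 and 836 CPM in the PTPRZ_Si libraries, against 641, 658 and 644 CPM in the PTPRZ_nc libraries (log2 fold change 0.37, SE 0.0336, edgeR adjusted p = 3.14e-07). UGDH, which makes the UDP-glucuronic acid used in glucuronidation, had 702, 723 and 698 CPM in the PTPRZ_Si libraries, against 558, 537 and 572 CPM in the PTPRZ_nc libraries (log2 fold change 0.35, SE 0.037, edgeR adjusted p = 2.07e-06). No value of 1 group reached those of the other in these 3 genes. CBR1, a carbonyl reductase, averaged 105 ± 2.72 CPM in PTPRZ_Si and 83.7 ± 5.9 CPM in PTPRZ_nc (SD, n = 3 each; log2 fold change 0.33, SE 0.0553, edgeR adjusted p = 2.23e-04). Its neighbour CBR3 was low, with 73, 78 and 77 counts in the PTPRZ_Si libraries and 67, 61 and 61 in the PTPRZ_nc libraries, and did not pass (log2 fold change 0.09, SE 0.203, edgeR adjusted p = 0.79). The 95% interval of CBR3, -0.34 to 0.52, is wide enough to hold the value of CBR1, and its sign turned without PTPRZ_Si replicate 1 or PTPRZ_nc replicate 3 (-0.07 and -0.03).

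The remaining members both rose. OSGIN1, an oxidative stress induced growth inhibitor, had 72.1, 73.2 and 74.4 CPM in the PTPRZ_Si libraries, against 56.5, 49.3 and 54.4 CPM in the PTPRZ_nc libraries (log2 fold change 0.45, SE 0.0597, edgeR adjusted p = 2.22e-05). SQSTM1, the autophagy receptor p62, which binds KEAP1 and is itself a target of NRF2, had 1298, 1329 and 1335 CPM in the PTPRZ_Si libraries, against 1130.2, 1284 and 1076 CPM in the PTPRZ_nc libraries (log2 fold change 0.18, SE 0.0487, edgeR adjusted p = 0.0093). PTPRZ_nc replicate 2 came close to the PTPRZ_Si values of SQSTM1, and the call was lost without PTPRZ_nc replicate 3 (log2 fold change 0.13, edgeR adjusted p = 0.0549). By the annotation of GENCODE 29, 20.7% of the exon bases of SQSTM1 overlap another gene, as do 24.9% in PRDX1, 42.2% in CBR3, 18.9% in CBR1, 17.7% in NQO1, 17.6% in NFE2L2 and 13.9% in OSGIN1. The counting command names no strand option. A read pair that lies in exons of both genes, on the same or on opposite strands, may thus not have been counted for either.

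Levels per length spanned a wide range. Per kb of exon, FTL was highest with 4498 ± 146 CPM per kb in PTPRZ_Si and 4082 ± 44.4 CPM per kb in PTPRZ_nc, followed by AKR1B10 with 1502 ± 19.5 CPM per kb in PTPRZ_Si and 1148 ± 8.11 CPM per kb in PTPRZ_nc and FTH1 with 1043 ± 27.1 CPM per kb in PTPRZ_Si and 925 ± 175 CPM per kb in PTPRZ_nc (SD, n = 3 each). AKR1B1 came next, with 704 CPM per kb in PTPRZ_Si and 451 CPM per kb in PTPRZ_nc. NRF2's own gene was in the lower part, with 42.6 ± 1.55 CPM per kb in PTPRZ_Si and 34.2 ± 2.57 CPM per kb in PTPRZ_nc (SD, n = 3 each). CBR1 and KEAP1, its neighbours in the order of the controls at 34.1 and 34 CPM per kb, did not differ from it beyond the spread there. In PTPRZ_Si, CBR1 had 43.0 ± 1.11 and KEAP1 38.8 ± 0.885 CPM per kb (SD, n = 3 each). GCLC was far lower, with 10.3 CPM per kb in PTPRZ_Si and 9.79 CPM per kb in PTPRZ_nc, and MAFF and CBR3 closed the order of the tested members. Exon lengths are those of all annotated transcripts together, which lowers the value of genes with long unused exons. Of the 50-base words in transcripts of FTL and AKR1B10, 18.3% and 14.6% occur in those of other genes. Read pairs that fit more than 1 gene may not have been counted, so these levels are uncertain too.

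**Figure D3:**
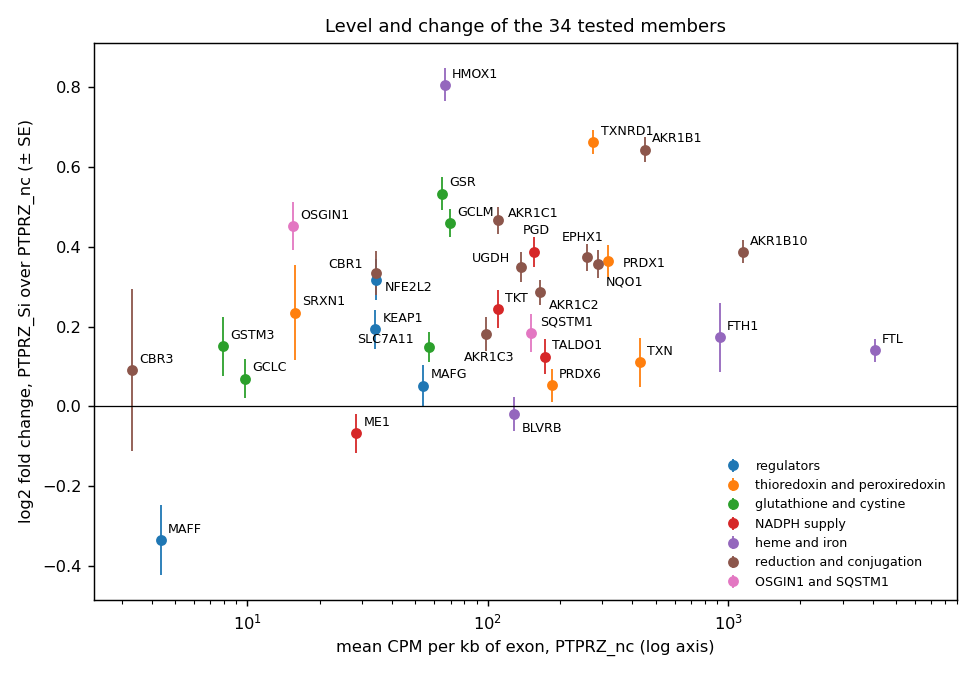
Mean control level of the 34 tested members in CPM per kb of exon (log axis) against their log2 fold change, PTPRZ_Si over PTPRZ_nc, with bars of 1 SE and colours for roles. HMOX1 is at the top with 0.81, FTL at the far right with 0.14, and MAFF at the lower left with -0.33.

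Genes of the pathway outside the module were counted from 4 further lists. These lists were chosen with earlier results of these data known, so they are not an independent check of the module. Of 23 tested genes among 25 other targets of NRF2, 15 rose, 1 fell and 7 did not pass, with a median log2 fold change of 0.33. The called shares were 65.2% higher and 4.35% lower, against 14.0% and 13.4% of all tested genes. The 4 with the smallest p all rose. ALDH3A1, an aldehyde dehydrogenase, averaged 106 ± 3.12 CPM in PTPRZ_Si and 63.5 ± 1.01 CPM in PTPRZ_nc (0.74, SE 0.0503 as log2 fold change). SLC48A1, a heme transporter, averaged 145 ± 3.5 CPM in PTPRZ_Si and 76.6 ± 8.39 CPM in PTPRZ_nc (0.91, SE 0.0636), CYP4F11, a fatty acid hydroxylase, 244 ± 2.87 CPM in PTPRZ_Si and 164 ± 6.87 CPM in PTPRZ_nc (0.58, SE 0.0438), and the conjugate exporter ABCC2 had a log2 fold change of 0.56 (SD, n = 3 each, edgeR adjusted p between 1.29e-08 and 4.44e-08). The gene that fell was HTATIP2 (log2 fold change -0.18, SE 0.0606, edgeR adjusted p = 0.0316), named after its value was seen. HTATIP2 did not pass without PTPRZ_Si replicates 1, 2 or 3 or PTPRZ_nc replicate 2 (edgeR adjusted p = 0.118, 0.0661, 0.0693 and 0.0996), where its log2 fold change was -0.17, -0.19, -0.20 and -0.11. GSTP1 and CES1 had 0 counts in all libraries and were not tested.

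Other regulators of NRF2 went both ways, with 5 higher, 3 lower and 7 that did not pass of 15 tested (median log2 fold change -0.01). These shares were 33.3% higher and 20.0% lower, against 14.0% and 13.4% of all tested genes. CREBBP, an acetyltransferase that acts as a coactivator of NRF2, averaged 159 ± 2.01 CPM in PTPRZ_Si and 98.8 ± 9.95 CPM in PTPRZ_nc (log2 fold change 0.68, SE 0.0596, edgeR adjusted p = 2.49e-07), and RXRA, a nuclear receptor that restrains it, averaged 263 ± 5.2 CPM in PTPRZ_Si and 206 ± 3.65 CPM in PTPRZ_nc (log2 fold change 0.35, SE 0.0406, edgeR adjusted p = 4.95e-06). The NRF2 relatives NFE2L1 and NFE2L3 both fell, where NFE2L2 itself had risen. NFE2L1, which controls proteasome genes, averaged 531 ± 5.08 CPM in PTPRZ_Si and 679.9 ± 1.08 CPM in PTPRZ_nc (SD, n = 3 each; log2 fold change -0.36, SE 0.0342, edgeR adjusted p = 6.63e-07). NFE2L3 averaged 76 ± 1.46 CPM in PTPRZ_Si and 90.3 ± 7.5 CPM in PTPRZ_nc (SD, n = 3 each; log2 fold change -0.24, SE 0.0593, edgeR adjusted p = 0.00521). BACH1, which competes with NRF2 for MAF partners and is named here after its value was seen, rose (log2 fold change 0.22, SE 0.0566, edgeR adjusted p = 0.00855). BTRC, likewise named after its value was seen, was the remaining gene that fell (log2 fold change -0.32, SE 0.0801, edgeR adjusted p = 0.00608). Of the 5 that rose, CUL3 did not pass in 8 of 14 alternatives, among them those without PTPRZ_Si replicates 2 or 3 or PTPRZ_nc replicates 1 or 3 (edgeR adjusted p = 0.128, 0.182, 0.121 and 0.0867), and EP300 did not without PTPRZ_Si replicate 3 (edgeR adjusted p = 0.0793), which left 3 higher. Both are named after their values were seen.

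The other genes of glutathione, thioredoxin and peroxide handling had no common direction: of 27 tested, 7 rose, 7 fell and 13 did not pass, with a median log2 fold change of 0.00. That is 25.9% in each direction, against 14.0% higher and 13.4% lower of all tested genes. TXNIP, which binds and inhibits thioredoxin, fell to 50.8 ± 2.44 CPM in PTPRZ_Si, against 93.7 ± 2.36 CPM in PTPRZ_nc (SD, n = 3 each; log2 fold change -0.89, SE 0.0551, edgeR adjusted p = 3.55e-09). SOD2, the mitochondrial superoxide dismutase, also fell (log2 fold change -0.63, SE 0.0391, edgeR adjusted p = 3.77e-09), while SESN3, a sestrin (log2 fold change 0.84, SE 0.0728, edgeR adjusted p = 2.24e-07), and GPX3, a secreted glutathione peroxidase (log2 fold change 0.44, SE 0.0392, edgeR adjusted p = 2.70e-07), rose. Of 12 tested genes among 16 other genes of NADPH supply and the pentose phosphate pathway, 5 rose, 2 fell and 5 did not pass (median 0.10). Higher calls made up 41.7%, against 14.0% of all tested genes. Lower calls made up 16.7%, near the 13.4% of all tested genes. IDH1, cytosolic isocitrate dehydrogenase, averaged 650.1 ± 22.4 CPM in PTPRZ_Si and 515 ± 5.07 CPM in PTPRZ_nc (log2 fold change 0.34, SE 0.0372, edgeR adjusted p = 3.38e-06). NADK, the kinase that makes NADP from NAD (log2 fold change 0.30, SE 0.054, edgeR adjusted p = 4.36e-04), and IDH2, the mitochondrial isocitrate dehydrogenase (log2 fold change 0.21, SE 0.0458, edgeR adjusted p = 0.00219), rose as well. Both that fell, ALDH1L2 (-0.23, SE 0.0531 as log2 fold change) and MTHFD2 (-0.13, SE 0.0379), named after their values were seen, are mitochondrial enzymes of folate metabolism. MTHFD2 did not pass without PTPRZ_Si replicates 1 or 3 (edgeR adjusted p = 0.0509 and 0.0716).

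**Figure D4:**
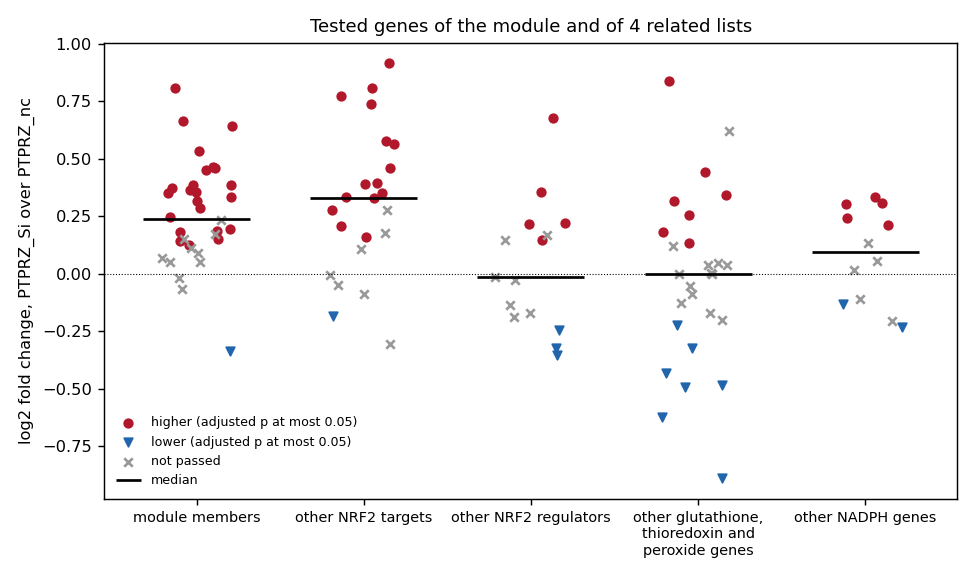
Log2 fold change, PTPRZ_Si over PTPRZ_nc, of each tested gene of the module and of the 4 further lists, with a bar at the median of each. The medians of the module (0.24) and of the other NRF2 targets (0.33) lie above 0, and the lists of other regulators and of other glutathione, thioredoxin and peroxide genes have called genes on both sides of 0.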

How the data were processed

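RNA of A498 cells was sequenced in 3 PTPRZ_Si and 3 PTPRZ_nc libraries, with groups and replicate numbers from the labels. The authors deposited counts of read pairs per gene, not normalized. Per the file headers, featureCounts 2.0.1 made them, counting pairs in exons and summing by gene, on Ensembl release 107, and the alignment names hold the word hisat. No strand option and no option for pairs with several placements appears there, so such pairs may have been left out and strands were not told apart. Per the submitters' processing notes, the build was hg38. An aligner version was not given in the sources used here. Per the labels' protocols, the library kit is directional.

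Gene identifiers were matched to symbols in a table of names (61757 genes) or in GENCODE 29 (101), and coordinates and exon lengths were taken from GENCODE 29 (GRCh38), since the table gives no lengths, although they had been planned from it. Genes were filtered with filterByExpr (15476 kept, 99.82% of counts), scaled by TMM and tested with glmQLFit and glmQLFTest of edgeR 4.0.16 in R 4.3.3, 2-sided, with Benjamini-Hochberg adjustment over all tested genes and a threshold of 0.05. SE is the log2 fold change over the square root of the test's F, and 95% intervals use its degrees of freedom. DESeq2 1.42.0 and limma 3.58.1 were alternatives. No library was a copy of another, since the chi-square per degree of freedom within groups was 2.16 to 6.26. The members, lists and tests were chosen with earlier results of these data known. All 35 members are described, and of each further list at most the 4 genes with the smallest p, beside genes said to be named after their values were seen. One gene that this rule would name is not reported here.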

Additional observations from a re-analysis of the deposited data

How the results depend on the processing

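Across 14 alternatives (2 other scalings, DESeq2, limma-voom, 2 other filters, a block, and libraries left out), 21 to 26 members were called higher and 0 or 1 lower, and 21 of the 24 called members kept their call in each. The exceptions were MAFF, SQSTM1 and TALDO1, the last of which also missed with library sizes only (edgeR adjusted p = 0.0519). With no filter on low counts, SRXN1 and FTH1 passed (edgeR adjusted p = 0.0107 and 1.58e-04). Without replicate 2 of both groups, MAFG and SRXN1 passed (edgeR adjusted p = 0.00724 and 1.24e-06), and 0 other NRF2 targets were called lower. Leaving out 1 library gave 0 to 1 members lower, 3 to 6 other regulators higher, 0 to 1 other targets lower and 1 to 2 other NADPH genes lower. With 1 library left out, the FTL to FTH1 ratio differed by -0.132 to 0.107, BLVRB by -0.0511 to 0.0104 and CBR3 by -0.0704 to 0.192 on the log2 scale. The sign turned for the ratio without PTPRZ_nc replicate 2 and without replicate 2 of both groups (to 0.061), for BLVRB without PTPRZ_nc replicate 1, and for CBR3 without PTPRZ_Si replicate 1 or PTPRZ_nc replicate 3 (-0.03). None of these 3 had passed its test. The cause of these turns was not tested. Gene length cancels in the difference between groups, so ratios of raw counts had to give the same values.

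With the replicate number as a block, 24 members were called higher and 1 lower, FTH1 being the one added (edgeR adjusted p = 0.0266), and 2123 genes higher and 1978 lower in all. The further lists had the same counts with the block, except 4 other regulators higher and 8 other glutathione, thioredoxin and peroxide genes lower. Deviations of same-numbered libraries from their group means correlated at 0.0271, 0.0333 and 0.0226, each the highest for its library but under 0.1, so the numbers were not taken to pair the libraries. CBR3, MAFF and GPX2 had the fewest counts, which limits their precision.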
